A study of Homo sapiens with 6 samples.

Results

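The epidermal growth factor (EGF) receptor family and its ligands were followed in the transcriptome of H2452 cells, an established pleural mesothelioma line, with and without CRISPR targeting of *NF2*. The group held 10 of the 58735 genes in the count table, taken by name: the receptor genes *EGFR*, *ERBB2* and *ERBB3*, the ligand genes *AREG*, *EREG*, *HBEGF*, *TGFA*, *NRG1* and *BTC*, and the receptor inhibitor gene *ERRFI1*. Each gene had a read count, a depth-scaled count (CPM, counts per 1000000 reads) and a value scaled to depth and gene length (FPKM) in 3 sgCtrl and 3 sgNF2-1 libraries. The sgCtrl cells (genotype WT) carried Cas9 with a scrambled guide, and the sgNF2-1 cells (genotype NF2-KO) carried Cas9 with a guide against *NF2*, so that both groups expressed Cas9 and the mCherry reporter used to sort infected cells. The sgNF2-1 cells were a sorted pool made with a single guide, no selection of clones was described, and all cells grew in RPMI-1640 with serum. The labels do not say that the libraries came from separate cultures, so that p-values measure only the spread between these libraries.

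EGFR and its relatives are receptor tyrosine kinases that pair when a ligand binds and then signal through RAS and ERK and through PI3K and AKT. ERBB2 has no known ligand of its own and acts as a partner, and ERBB3 has a weak kinase and depends on its partner. The ligands are made as membrane proteins and are released by metalloproteases of the ADAM family, and ERRFI1 (MIG6) binds the active kinase and blocks it. Merlin, the product of *NF2*, is a membrane-linked protein lost in many mesotheliomas that is known to restrain EGFR signalling at cell contacts and to act upstream of the Hippo pathway.

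The ligands share an EGF-like repeat, a fold held by 6 cysteines through which they bind the receptor, and this repeat was read from the GENCODE 29 coding sequences on GRCh38. The stretches of the 3 ligands on whose transcripts the results turn are printed here with the cysteine codons in capitals.
TGFA: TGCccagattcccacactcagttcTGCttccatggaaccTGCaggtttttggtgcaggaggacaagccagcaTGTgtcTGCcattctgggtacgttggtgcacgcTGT
HBEGF: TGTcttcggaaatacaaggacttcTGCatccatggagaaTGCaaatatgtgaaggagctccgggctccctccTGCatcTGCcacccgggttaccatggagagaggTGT
EPGN: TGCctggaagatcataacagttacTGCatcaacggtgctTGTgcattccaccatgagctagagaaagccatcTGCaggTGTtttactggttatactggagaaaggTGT
The *TGFA* stretch runs from codon 47 to codon 82 (chr2:70456458-70465692, minus strand), the *HBEGF* stretch from codon 108 to codon 143 (chr5:140335997-140342711, minus strand) and the *EPGN* stretch from codon 60 to codon 95 (chr4:74312229-74313048, plus strand). Each was 36 codons long and was split between exons 3 and 4 at the same base, with 77 bases in the former and 31 in the latter, and the same spacing and split were found in *AREG*, *EREG* and *BTC*. *NRG1*, a neuregulin that binds ERBB3 and ERBB4, had a longer repeat of 40 codons. Aligned base by base, *TGFA* and *HBEGF* were identical at 53.7% of positions, *HBEGF* and *EPGN* at 53.7% and *TGFA* and *EPGN* at 47.2%.

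The libraries held 14782423 to 17416463 counted reads, with 15403298 to 16083906 in sgCtrl. The targeted gene was lower but present, with 1162, 1197 and 1025 *NF2* reads in sgCtrl and 692, 802 and 590 in sgNF2-1 (log2 fold change -0.69, SE 0.10, edgeR adjusted p = 7.9e-06). Mitochondrial genes took 2.65 to 3.69% of reads in sgCtrl and 3.67 to 4.67% in sgNF2-1, and the part of this difference in the results was not tested. Of 9 mesothelial markers, 8 were tested, 2 rose and 3 fell (of all tested genes, 17.7% rose and 16.6% fell). Their summed level was 3264 to 3680 CPM in sgCtrl and 2862 to 3515 CPM in sgNF2-1. *MSLN* (log2 fold change 0.66) and *KRT18* (0.28) rose, and *PDPN* (-1.28), *WT1* (-1.04) and *KRT19* (-0.94) fell. The call of *KRT18* was lost without sgCtrl replicate 1, sgCtrl replicate 2 or sgNF2-1 replicate 3. *KRT8*, *CALB2* and *UPK3B* did not pass the test, and *LRRN4*, with 0 to 5 reads, was not tested. Among 7 markers of blood, endothelial and epithelial cells, *PTPRC* and *MS4A1* were at 0 in every library, while *CD14* (987 to 2245 reads) and *PECAM1* (16 to 117 reads) were present in both groups and fell in sgNF2-1 (log2 fold changes -1.06 and -2.28), and *CDH5* (9 to 24 reads) did not pass the test (0.37, edgeR adjusted p = 0.53; summed level of the list 142 to 154 against 67.4 to 73.0 CPM); their part in the results was not tested. In these bulk libraries, fewer cells that express a gene and less RNA per cell cannot be told apart.

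Within the family, *ERBB2* and *EGFR* rose, *TGFA* fell, and *HBEGF*, *NRG1* and *ERRFI1* did not pass the test, while *ERBB3*, *AREG*, *EREG* and *BTC* were too low to be tested. Of the 14179 genes tested, 17.7% were called higher and 16.6% lower in sgNF2-1 at an edgeR adjusted p under 0.05, so that 2 higher and 1 lower among 6 tested members stood against a background in which a large share of genes moved. The median log2 fold change of the 6 tested members was 0.09, against -0.0025 over all tested genes. The study's cut-offs were a log2 fold change of more than 0.5 in size and an unadjusted p under 0.05, on DESeq2 results. Applied to the edgeR results here, they gave 9.22% of genes higher and 10.8% lower, and the members left were *ERBB2* and *TGFA*. The libraries of the 2 groups did not overlap in CPM for 4 of the 6 tested members (*ERBB2*, *HBEGF*, *TGFA* and *ERRFI1*), against 45.3% of all tested genes.

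**Figure D1:**
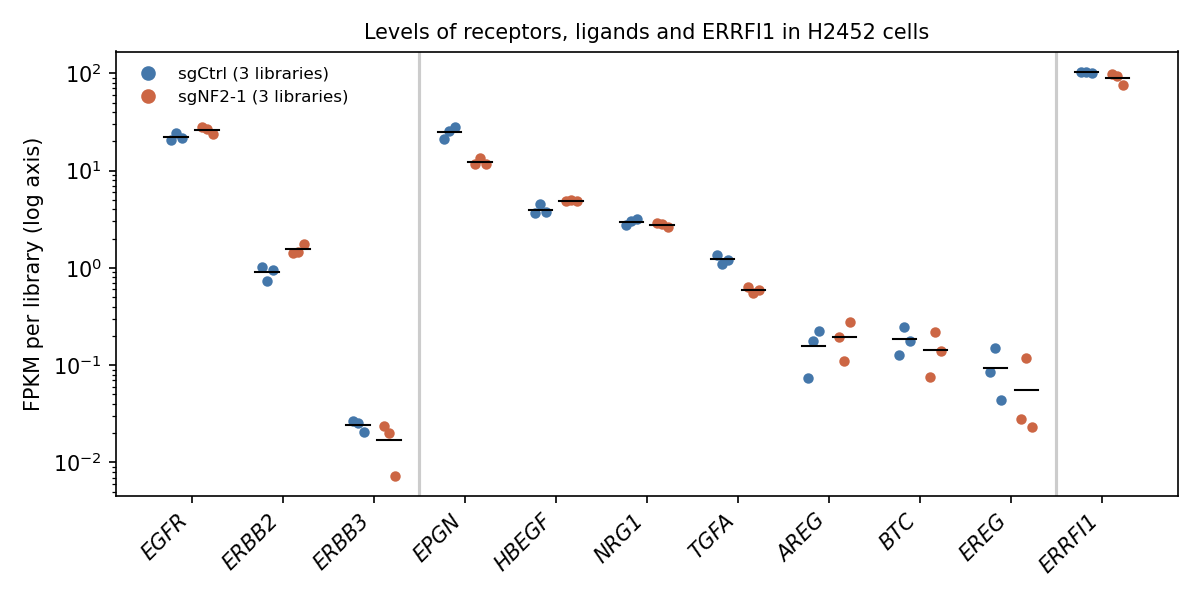
FPKM of each receptor gene (left), ligand gene (middle) and *ERRFI1* (right) on a log axis, 1 point per library and a line at the mean of the 3 libraries of a group. The sgNF2-1 points lie above the sgCtrl points for *ERBB2* and *HBEGF* and below them for *EPGN*, *TGFA* and *ERRFI1*, and *ERBB3*, *AREG*, *BTC* and *EREG* stay below 0.3 FPKM.

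*EGFR* (ENSG00000146648, chr7:55019021-55211628 on hg38, the build of all gene positions given here, plus strand) was by far the most abundant receptor. It was counted at 274, 324 and 285 CPM in the sgCtrl libraries and 376, 357 and 319.5 CPM in the sgNF2-1 libraries. The groups overlapped, since sgCtrl replicate 2 lay above sgNF2-1 replicate 3. The level rose by 1.19-fold (log2 fold change 0.25, SE 0.09, edgeR adjusted p = 0.025), and this call was lost without sgCtrl replicate 1 (adjusted p = 0.12), sgCtrl replicate 3 (0.056), sgNF2-1 replicate 1 (0.13) or sgNF2-1 replicate 2 (0.078). On the FPKM values tested by limma the adjusted p was 0.087. The increase was thus small, and its call was kept in 2 of the 6 fits with a library left out.

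*ERBB2* (ENSG00000141736, chr17:39687914-39730426, plus strand), which encodes the ligand-less partner HER2, was low and clearly higher after *NF2* targeting. The counts were 175, 132 and 156 reads in sgCtrl and 276, 244 and 279 reads in sgNF2-1, or 11.1, 8.04 and 10.3 CPM against 15.7, 15.8 and 19.6 CPM. Every sgNF2-1 library lay above every sgCtrl library. The level rose by 1.73-fold (log2 fold change 0.79, SE 0.15, edgeR adjusted p = 0.00016), a call that was kept whichever library was left out but lost with limma on FPKM without a filter (adjusted p = 0.081). Part of the gene's exons overlaps 2 neighbours on the other strand. The overlap with *MIEN1* was 571 bases, or 5.53% of *ERBB2* and 24.9% of *MIEN1*. That with *PGAP3* was 194 bases, or 1.88% of *ERBB2* and 5.29% of *PGAP3*. *MIEN1* also rose (log2 fold change 0.52, SE 0.12, edgeR adjusted p = 0.0016), as did *STARD3*, which lies further from *ERBB2* (0.27, SE 0.09, adjusted p = 0.025, a call lost without sgCtrl replicate 1 or 2 or sgNF2-1 replicate 3), while *PGAP3* did not pass the test (-0.01, adjusted p = 0.95). The library kit does not mark strand and the strand setting of the counting was not given in the sources used here, so that reads from the shared bases cannot be assigned to 1 gene.

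*ERBB3* (ENSG00000065361), the neuregulin receptor, was close to absent, with 4, 4 and 3 reads in sgCtrl and 4, 3 and 1 reads in sgNF2-1. *ERBB4*, the remaining receptor of the family, was read 0 times in each sgCtrl library and 4, 1 and 2 times in the sgNF2-1 libraries. Its groups thus did not overlap. A count of 0 allows up to 3 reads by counting error alone, a bound for a single library and not for the group. Both genes were too low to be tested, so that a difference was neither shown nor excluded.

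Summed over the 4 receptors, transcripts amounted to 23.2 ± 1.86 FPKM in sgCtrl and 27.9 ± 1.99 FPKM in sgNF2-1 (SD, n = 3). The groups did not overlap, but the highest sgCtrl library (25.3) came close to the lowest sgNF2-1 library (25.7), and *EGFR* alone overlapped. *EGFR* made up 96.0% of this sum in sgCtrl and 94.3% in sgNF2-1, and *ERBB2* 3.93% and 5.61%. The ratio of *ERBB2* to *EGFR* FPKM was 0.0492, 0.0302 and 0.0438 in sgCtrl and 0.0506, 0.0538 and 0.0744 in sgNF2-1, so that the groups lay side by side with a gap that was narrow against their spread (two-sided exact permutation p = 0.10, the smallest value that 3 against 3 libraries can give).

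*TGFA* (ENSG00000163235, chr2:70447280-70554193, minus strand), which encodes transforming growth factor alpha, a ligand of EGFR, fell in every sgNF2-1 library. The libraries held 113, 94 and 96 reads in sgCtrl and 59, 45 and 45 reads in sgNF2-1, or 7.17, 5.73 and 6.33 CPM against 3.35, 2.92 and 3.16 CPM. The groups were well apart, with the highest sgNF2-1 library below the lowest sgCtrl library. The mean level in sgNF2-1 was 49.0% of that in sgCtrl (log2 fold change -1.02, SE 0.20, edgeR adjusted p = 0.00036), and the call held in each of the 15 alternative fits.

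*HBEGF* (ENSG00000113070, chr5:140332843-140346631, minus strand), the heparin-binding ligand of EGFR and ERBB4, lay higher in sgNF2-1 without passing the test. The values were 11.8, 14.3 and 11.9 CPM in sgCtrl and 15.5, 15.8 and 15.7 CPM in sgNF2-1. The groups did not overlap, and the sgNF2-1 libraries were nearly identical, but sgCtrl replicate 2 came close to them. The log2 fold change was 0.31 (SE 0.13, 95% interval 0.04 to 0.58, edgeR adjusted p = 0.072), and without sgCtrl replicate 2 it was 0.40 with an adjusted p of 0.049. The ratio of *HBEGF* to *TGFA* in FPKM was 2.71, 4.09 and 3.08 in sgCtrl and 7.61, 8.92 and 8.15 in sgNF2-1. This ratio, taken within each library and so free of library scaling, did not overlap between the groups. Its two-sided exact permutation p was 0.10, the smallest possible and the same as for *HBEGF* alone. The ratio also holds the fall of *TGFA* (log2 fold change -1.02), so that it adds nothing on *HBEGF* itself.

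*NRG1* (ENSG00000157168), a neuregulin gene, was measured at 32.7, 36.0 and 38.3 CPM in sgCtrl and 34.9, 34.3 and 31.6 CPM in sgNF2-1. The groups overlapped. The log2 fold change was -0.08 (SE 0.10, edgeR adjusted p = 0.56), and its 95% interval ran from -0.30 to 0.13.

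The remaining ligand genes among the members lie together on chromosome 4 and were near the limit of counting. *AREG*, which encodes amphiregulin, had 2, 5 and 6 reads in sgCtrl and 6, 3 and 7 in sgNF2-1. *EREG*, which encodes epiregulin, had 8, 15 and 4 reads against 3, 11 and 2. *BTC*, which encodes betacellulin, had 6, 12 and 8 reads against 4, 10 and 6. The ranges of the groups overlapped in CPM for each of these genes, and a difference was not detectable at this depth.

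*EPGN*, which encodes the EGFR ligand epigen, was not among the 10 genes but belongs to the list of remaining family genes, and it lies in the same chromosome 4 region (chr4:74308473-74315307, plus strand) as *AREG*, *EREG* and *BTC*. It had 633, 804 and 809 reads in sgCtrl and 401, 401 and 322 reads in sgNF2-1, or 40.2, 49.0 and 53.3 CPM against 22.8, 26.0 and 22.6 CPM. All sgNF2-1 libraries lay well below all sgCtrl libraries. The level fell to 50.1% of control (log2 fold change -0.997, SE 0.11, edgeR adjusted p = 1.9e-07), a call made in each of the 15 alternative fits. The next gene in the region, *MTHFD2L*, did not pass the test (-0.02, SE 0.13, adjusted p = 0.93).

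Of the other genes in that list, *NRG2*, a neuregulin gene, fell from 31, 29 and 30 reads to 4, 6 and 7 reads (log2 fold change -2.37, SE 0.43, edgeR adjusted p = 0.00013). *EGF* had 37, 52 and 45 reads in sgCtrl and 39, 26 and 11 reads in sgNF2-1, where replicate 3 was far lower than replicate 1 (-0.83, SE 0.33, adjusted p = 0.053). *NRG4* had at most 15 reads and was not tested, and *NRG3* was at 0 in every library. Thus 2 of the 3 tested genes of this list fell and none rose, where 16.6% of all tested genes fell and 17.7% rose.

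**Figure D2:**
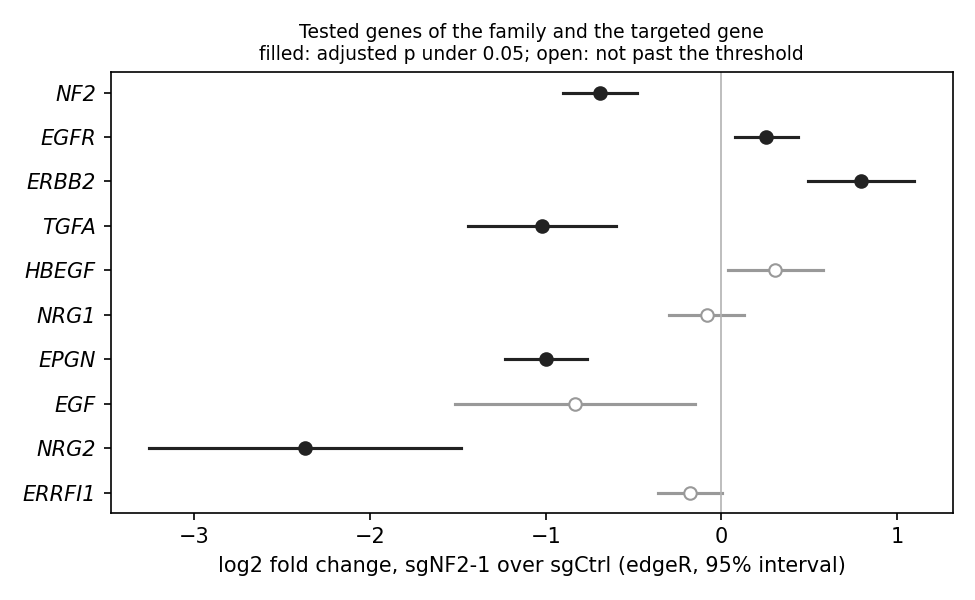
Log2 fold change of sgNF2-1 over sgCtrl by edgeR for *NF2*, the 6 tested members and 3 further ligand genes, with bars for the 95% interval (3 libraries per group). Filled points passed an adjusted p of 0.05: *ERBB2* (0.79) and *EGFR* (0.25) lie to the right of 0, and *TGFA* (-1.02), *EPGN* (-0.997), *NRG2* (-2.37) and *NF2* (-0.69) to the left.

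Because FPKM is scaled to gene length, it allows levels to be compared between genes, but only approximately. The length used is that of all annotated exons of a gene together (12521 bases for *EGFR* and 10321 for *ERBB2*). It can exceed the length of a transcript, so that ranks, shares and ratios between genes depend on it. In sgCtrl, *EPGN* (24.8 ± 3.49 FPKM) and *EGFR* (22.3 ± 2.01 FPKM, SD, n = 3) overlapped, followed by *HBEGF* (3.97), *NRG1* (2.98), *TGFA* (1.22) and *ERBB2* (0.901). In sgNF2-1 *EGFR* (26.3 ± 2.17 FPKM) lay above *EPGN* (12.3 ± 1.01 FPKM) without overlap, and *ERBB2* (1.55) had moved above *TGFA* (0.595). In both groups the ranges of *BTC* and *AREG* overlapped, as did that of *EREG* with the next higher of these genes.

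Summed over all ligand genes of the family, transcripts were 30.03, 35.8 and 37.4 FPKM in sgCtrl and 20.9, 22.7 and 20.5 FPKM in sgNF2-1. The groups did not overlap (34.4 ± 3.88 against 21.4 ± 1.18 FPKM, SD, n = 3, two-sided exact permutation p = 0.10, the smallest possible). Most of the difference lay in *EPGN*, since over the 6 ligand genes among the members alone, the sums were 8.61 ± 0.539 and 8.65 ± 0.135 FPKM (exact permutation p = 0.90). The share of *EPGN* in the ligand sum was 71.9% in sgCtrl and 57.6% in sgNF2-1, that of *HBEGF* 11.6% and 22.8%, that of *NRG1* 8.69% and 13.1%, and that of *TGFA* 3.61% and 2.79%. A share rises when others fall, and the level of *NRG1* itself did not pass the test.

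**Figure D3:**
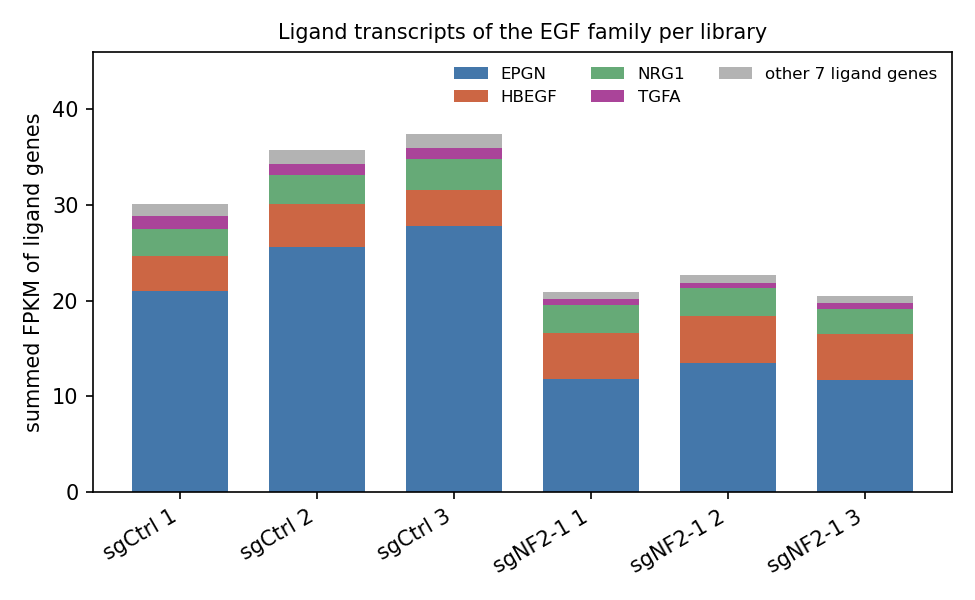
Summed FPKM of the EGF-family ligand genes in each library, stacked by gene. The bars reach 30.03 to 37.4 FPKM in sgCtrl and 20.5 to 22.7 FPKM in sgNF2-1, and most of the gap is in the *EPGN* segment (mean 24.8 against 12.3 FPKM).

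*ERRFI1* (ENSG00000116285, chr1:8004404-8026308, minus strand), the feedback inhibitor of the receptor kinases, had the highest FPKM of the members in both groups. It was measured at 453, 457 and 446 CPM in sgCtrl and 434, 421 and 342 CPM in sgNF2-1. The groups did not overlap, but most of the distance came from sgNF2-1 replicate 3. The log2 fold change was -0.18 (SE 0.09, 95% interval -0.36 to 0.0033, edgeR adjusted p = 0.12), and without that library it was -0.08 with an adjusted p of 0.49. *ERRFI1* shares 155 exonic bases with *AL034417.4* on the other strand, a gene with a mean of 1.78 CPM in sgCtrl against 452 CPM for *ERRFI1*. *AL034417.4* fell (log2 fold change -1.53, SE 0.44, edgeR adjusted p = 0.0090), a call lost without sgCtrl replicate 3 or sgNF2-1 replicate 3.

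Genes that act on the release of the ligands from the membrane, inhibitors included, were mostly lower. Of 11 such genes, all tested, 7 fell and 1 rose, with a median log2 fold change of -0.33, where 16.6% of all tested genes fell and 17.7% rose. Those that fell included *ADAM17*, the main sheddase of TGFA, AREG and HBEGF (113 ± 3.73 to 89.7 ± 8.34 CPM, SD, n = 3, log2 fold change -0.33, SE 0.09, edgeR adjusted p = 0.0040), and *ADAM10*, the main sheddase of EGF and BTC (237 ± 11.6 to 143 ± 9.56 CPM, -0.73, SE 0.08). *ADAM12* fell by 0.95 and *ADAM9* by 0.51 on the log2 scale, and *TIMP3*, which encodes an inhibitor of ADAM17, fell by 0.44. These 5 calls were kept whichever library was left out. *RHBDF1*, of the same list, also fell (-0.26, SE 0.09, edgeR adjusted p = 0.024), a call kept in 2 of 6 such fits. *RHBDF2*, which encodes the iRhom2 partner of ADAM17, rose (0.22, SE 0.08, adjusted p = 0.035), but the call was kept in 1 of 6 fits with a library left out and was lost without any 1 of sgCtrl replicates 1, 2 and 3 and sgNF2-1 replicates 1 and 2.

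For the adaptors and kinases that carry the receptor signal, few calls were made. Of 24 genes, all tested, 3 rose (12.5%) and 2 fell (8.33%), against 17.7% and 16.6% of all tested genes, and the median log2 fold change was -0.08. *AKT1* rose (93.7 ± 5.72 to 118 ± 11.9 CPM, SD, n = 3, log2 fold change 0.34, SE 0.09, edgeR adjusted p = 0.0041) and kept its call whichever library was left out, but not with limma on FPKM without a filter (0.086). *PIK3R1*, the p85 subunit gene of PI3K, fell (-0.57, SE 0.17, adjusted p = 0.0096), a call lost without sgCtrl replicate 2 or sgNF2-1 replicate 1 and with limma on FPKM (adjusted p = 0.13). The calls of *VAV2* (0.24), *MAP2K2* (0.22) and *PTPN11* (-0.21) were lost with 1 library fewer in 5, 3 and 5 of 6 fits. The adaptor gene *GRB2* and the exchange factor gene *SOS1* did not pass the test.

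Genes that attenuate the receptors moved both ways. Of 22 genes, 20 were tested, 6 rose (30%) and 3 fell (15%), against 17.7% and 16.6% of all tested genes, with a median log2 fold change of 0.02. *RNF41* (NRDP1), a ubiquitin ligase for ERBB3, rose from 47.8 ± 3.25 to 77.1 ± 1.43 CPM (SD, n = 3, log2 fold change 0.69, SE 0.09, edgeR adjusted p = 1.2e-06). *HGS*, which sorts ubiquitinated receptors in endosomes, rose by 0.51 (SE 0.08), and *CBLB*, a ubiquitin ligase for EGFR, by 0.45 (SE 0.13). *CBL* rose by 0.33 (SE 0.10, adjusted p = 0.016), a call lost without sgCtrl replicate 3, sgNF2-1 replicate 1 or sgNF2-1 replicate 2. In the other direction, *LRIG1*, an inhibitor of the ERBB receptors, fell from 34.6 ± 4.59 to 24.0 ± 0.541 CPM (-0.53, SE 0.11, adjusted p = 0.00072), and *PTPRJ*, a receptor phosphatase, and *SOCS5* fell by 0.53 and 0.57. Apart from *CBL* the calls named here were kept in each fit with a library left out, while with limma on FPKM both *CBL* and *CBLB* lost theirs (adjusted p = 0.10 for each).

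Among genes known to respond to ERK, 19 of 20 were tested, 8 rose (42.1%), 3 fell (15.8%) and the median log2 fold change was 0.17, against 17.7% higher and 16.6% lower over all tested genes. *FOSL1*, an AP-1 subunit, rose from 101 ± 1.77 to 225 ± 11.3 CPM (SD, n = 3, log2 fold change 1.16, SE 0.08, edgeR adjusted p = 5.1e-11). *MYC* rose from 159 ± 1.28 to 335 ± 6.67 CPM (1.07, SE 0.08), the ETS factor gene *ETV4* by 1.14 (SE 0.16) and *DUSP5*, a nuclear ERK phosphatase, by 0.94 (SE 0.09). *DUSP6*, the cytoplasmic ERK phosphatase, fell instead from 51.5 ± 2.02 to 31.9 ± 1.80 CPM (-0.69, SE 0.10, adjusted p = 3.9e-06), as did *EGR1* (-0.50, SE 0.14) and *SPRED3* (-0.59, SE 0.18), the latter call being lost without sgCtrl replicate 2, sgNF2-1 replicate 1 or sgNF2-1 replicate 3 and with limma on FPKM (adjusted p = 0.11). Without a filter, limma on FPKM also ended the call of *EGR1* (adjusted p = 0.096). *FOSL1* and *MYC* also respond to other pathways, and *CCND1* (-0.14, adjusted p = 0.19) and *SPRY2* (0.08, adjusted p = 0.74) did not pass the test. *SPRY4* (0.79), *PHLDA1* (0.48), *IER3* (0.39) and *ETV5* (0.36) also rose, and these calls were kept whichever library was left out. The list thus held genes that rose, genes that fell and genes that did not pass the test.

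**Figure D4:**
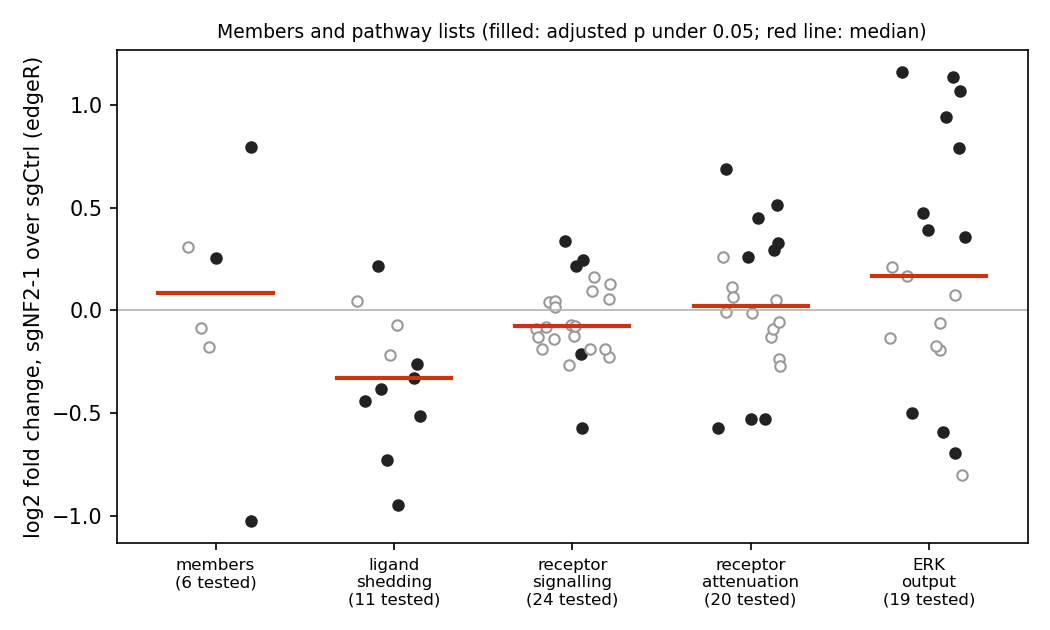
Log2 fold change of sgNF2-1 over sgCtrl by edgeR for each tested gene of the members and of 4 pathway lists, with filled points past an adjusted p of 0.05 and a red line at the median. The shedding list lies mostly below 0 (median -0.33), the signalling list close to 0 (-0.08), and the attenuation (0.02) and ERK output (0.17) lists spread to both sides.

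Across the 6 libraries, the genes whose log CPM followed *ERBB2* most closely were *BCAT2* (Pearson r = 0.997), *SURF2* (0.997) and *PTGES2* (0.995). Those nearest to *TGFA* were *SRSF4* (0.998), *MFSD1* (0.997) and *ENO2* (0.997). With 6 libraries in 2 groups and a large share of genes differing between them, such values describe the pattern only.

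The 250 bases before each gene's start (RefSeq, GRCh38.p14) were searched on both strands for CATTCC, the core motif of the TEAD factors of the Hippo pathway. They were also searched for TGANTCA, a loose form of the AP-1 motif in which N is any base, called the AP-1 motif below. *ERBB3* and *NRG1* were not in the table used. The AP-1 motif is found in 6.57% of 35116 such promoters. It was found 1 time before *ERBB2*, 222 bases ahead of the RefSeq start. That start lies downstream of the gene start given above (chr17:39687914), so that part of the window falls within the gene as placed there. The stretch (chr17:39687861-39687890, plus strand) is shown here with the motif in capitals because *ERBB2* was the member that rose most.
ERBB2: gggagcggaagTGATTCAgagcgcccccag
The TEAD motif is found in 11.9% of promoters and was found 1 time before *EREG*. No match to either motif lay in the windows of *EGFR*, *HBEGF*, *TGFA*, *EPGN*, *AREG*, *BTC* or *ERRFI1*, and a match or its absence in these letters describes the window only.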

How the data were processed

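RNA-seq of H2452 cells was performed with a library kit (NEBNext Ultra) that does not mark strand, on a NovaSeq with paired ends. The deposited read counts and FPKM values per gene were made by the authors, and the submitters' processing notes name HISAT2, StringTie 1.3.3b, featureCounts 1.5.0-p3 and hg38. Counts are raw, and within each library FPKM values were proportional to count per length. The depth this implied was 1.03 to 1.08 times the counted reads, and the source of that difference was not tested. Groups follow the labels (3 sgCtrl, 3 sgNF2-1).

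Counts were tested with edgeR 4.0.16 (R 4.3.3; filterByExpr with a minimum count of 10, TMM scaling, quasi-likelihood test, Benjamini-Hochberg adjustment over 14179 genes, threshold 0.05), and CPM uses the TMM-scaled depth. Alternatives were DESeq2 1.42.0, other scaling and filters, a replicate block, limma 3.58.1 on log2(FPKM + 1) or log2(FPKM + 0.1), and leaving out each library. The fits were also run on counts simulated from the means and spreads of the main fit, in which few genes changed. Since a large share of genes was called in the real libraries, that run does not vouch for the fits here. The members and gene lists were chosen with earlier results of these data known. Beside members, family genes and cell markers, the text names up to 4 called genes per list and direction by size. It also names tested genes within 100 kb of a member or overlapping it, and the 3 closest in pattern to each of the 2 members with the smallest adjusted p. Further genes were named after their values were seen (*ADAM17*, *RHBDF1*, *GRB2*, *SOS1*, *CCND1*, *SPRY2*, *SPRY4*, *PHLDA1*, *IER3*, *ETV5*).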

Additional observations from a re-analysis of the deposited data

How the results depend on the processing

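Of 577 log2 fold changes recomputed under alternatives, 498 kept their direction and their side of the threshold. The 577 include list genes named for large called changes in these data, whose calls are more easily kept. Among the called members, *EGFR* kept its call in 8 of 15 alternatives, *ERBB2* in 14 and *TGFA* in 15. Of 184 recomputed counts of calls, 149 stayed within 1.5 times the reported count. The number of members called higher (2) was 1 with limma on log2(FPKM + 1) or log2(FPKM + 0.1). It was also 1 with the study's fold rule applied to the edgeR results (more than 0.5 on the log2 scale and an unadjusted p under 0.05). With limma on log2(FPKM + 1) without a filter it was 0. When each library was left out it was 1 to 3 (3 without sgCtrl replicate 2, where *HBEGF* passed). *EGFR* lost its call under limma (0.23 with a pseudocount of 1, with or without the filter, and 0.24 with 0.1) and ranged from 0.21 to 0.33 when each library was left out, while *ERBB2* lost its call under limma without a filter (0.42), and the log2 fold change of *HBEGF* ranged from 0.26 to 0.40 when each library was left out. Over all genes, limma without a filter called 1277 higher and 1266 lower, and the fold rule 1308 and 1531. The values near 0 of *PGAP3* turned positive without a filter (0.0012), and, when each library was left out, ranged from -0.17 (without sgNF2-1 replicate 3) to 0.11 (without sgNF2-1 replicate 1), and those of *MTHFD2L* from -0.096 (without sgNF2-1 replicate 3) to 0.070 (without sgNF2-1 replicate 1). The cause of these changes was not tested.

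Libraries with the same replicate number showed little shared deviation from their group means (Pearson r -0.04, 0.07 and 0.06 for numbers 1, 2 and 3). In both groups replicate 3 differed most from the others. The chi-square per degree of freedom between its counts and theirs was 12.8 and 9.65 in sgCtrl and 9.29 and 9.97 in sgNF2-1. Between replicates 1 and 2 it was 5.6 and 5.18. Whether libraries of the same number shared a batch was not tested. With a replicate block *ERRFI1* passed the threshold (-0.19, edgeR adjusted p = 0.045), which gave 2 members called lower. *ERBB3*, *AREG*, *EREG* and *BTC*, with at most 15 reads in any library, were limited by depth.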
